A study of Drosophila melanogaster with 20 samples.

Results

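Divergent start-site pairs are sets of neighboring transcripts that begin close together and run away from each other on opposite strands. Here, a pair was a minus-strand start site with a plus-strand start site lying 0 to 1000 bp to its right, both belonging to genes listed as differentially expressed in rasV12scrib1 mosaic eye/antennal imaginal discs (EAD). Of the 4926 distinct upstream regions in the deposited list, 4262 could be given a strand, and 221 of these were members, 112 on the minus strand and 109 on the plus strand. Members thus were 5.19% of the stranded regions (95% Wilson interval 4.56 to 5.89%, which covers counting only and treats regions as independent). Neighboring start sites of one gene, and the 2 sides of one pair, are not independent.

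The lists record the outcome of one comparison, between EAD carrying malignant rasV12scrib1 clones (4 samples) and control EAD carrying FRT82B clones (4 samples). Clones in both groups were made by MARCM, in which ey-FLP drives recombination on the right arm of chromosome 3 and GAL4-driven transgenes with UAS-GFP are active only in the recombined cells. Tumor clones expressed oncogenic RasV12 and were homozygous for the scrib1 allele of the polarity gene scribble, whereas control clones carried the FRT82B chromosome alone. Every disc was mosaic, so RNA came from clonal and surrounding cells together, from third-instar larvae. The other 4 genotypes of the series, 12 of the 20 samples, are not represented in the lists.

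The deposited values are positions in the fly genome build dm3, without gene names, directions of change or expression values. No pair can therefore be said to hold genes that rose together, fell together or moved apart, and no replicate error applies to the numbers below. Each upstream region was exactly 5000 bp long and bordered a start site, and the regions were listed because they had been searched for binding motifs of AP-1, Ets21c and Ftz-F1. AP-1 is formed by the bZIP proteins Fos and Jun and is a nuclear target of JNK signaling, Ets21c is an ETS-domain factor, and Ftz-F1 is a nuclear receptor. Sequence in dm3 was not used here, so no base of a pair is printed and no motif was counted.

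Head-to-head genes are common in the compact Drosophila genome. The short stretch between their start sites holds the core promoters of both transcripts, and it can also hold elements that act on either gene or insulators that keep them apart. In flies the insulator-binding protein BEAF-32 is known for binding between head-to-head genes. Because the assignment of a motif to a gene rests on distance from a start site, a divergent pair is also the place where one stretch of DNA is assigned to more than 1 gene.

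The 221 regions formed 121 pairs at 102 separate loci. At 90 loci the pair was simple, with 1 start site on each strand. At 8 loci there were 3 start sites, at 3 loci there were 4, and at 1 locus there were 5. When transcripts sharing an upstream region or an end of their first intron were linked into groups, which stand in for genes, the pairs came from 210 groups in 109 combinations. Taking only start sites that were each other's nearest listed neighbor on the opposite strand left 102 pairs. These mutual pairs are the base for every statement below that weighs each pair once.

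Start sites within pairs lay 38 to 999 bp apart, with a median of 467 bp (95% binomial interval of the median 379 to 588 bp) and quartiles of 272 and 736 bp. The upper end is set by the limit of 1000 bp. Only 5 pairs were under 100 bp apart. Another 49 pairs (40.5%) lay 100 to 399 bp apart, and the remaining bins of 100 bp held 9 to 16 pairs each. The widest pair inside the limit measured 999 bp and the next 995 bp, while the closest combinations outside it measured 1004 and 1009 bp, with 16 pairs from 901 to 1000 bp and 12 from 1001 to 1100 bp. The limit therefore does not coincide with a gap in the distances.

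**Figure D1:**
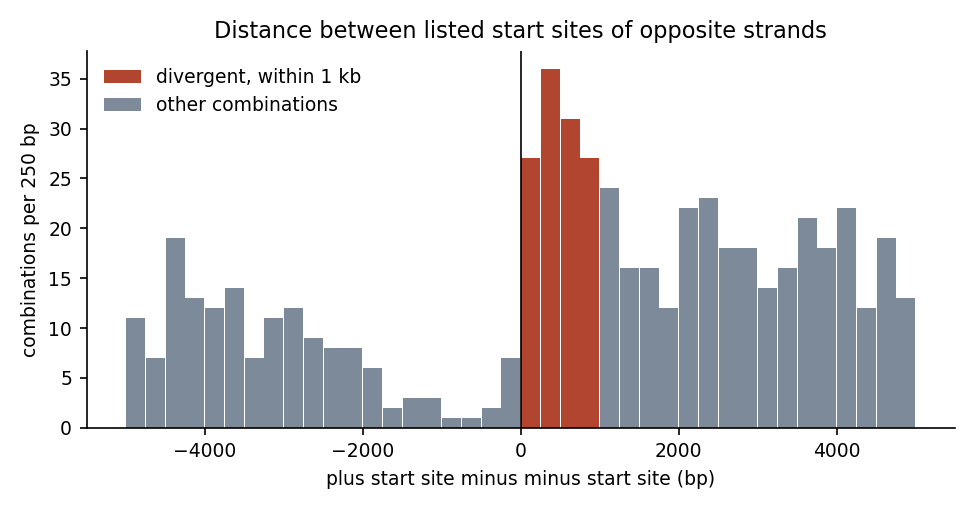
Number of combinations of a listed minus and a listed plus start site per 250 bp (y axis) by the position of the plus site relative to the minus site in bp (x axis), red for divergent pairs within 1 kb and gray for all others. The 4 red bins sum to 121 combinations, against 11 in the 4 gray bins just left of 0.

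To place the pairs in their surroundings, all combinations of opposite-strand start sites within 5 kb were counted, 561 in total. Divergent combinations numbered 121 at 0 to 1000 bp, 68 at 1001 to 2000 bp, 81 at 2001 to 3000 bp, 69 at 3001 to 4000 bp and 66 at 4001 to 5000 bp. The first kilobase thus held 1.70 times the mean of the next 4, which was 71 per kilobase. In the reverse order, where the plus start site lies left of the minus one and the 5′ ends of the transcripts overlap or face each other, 11 combinations fell within 1000 bp. This gave a ratio of divergent to overlapping pairs of 11 (95% Wilson interval of the underlying share converted to a ratio, 5.99 to 20.2). The interval treats combinations as independent, which those of a crowded locus are not. The ratio was 14.6 over mutual nearest start sites and 12.1 over pairs of different linked groups. Overlapping combinations numbered 14 at 1001 to 2000 bp and 50 at 4001 to 5000 bp. Among them, 7 of the 11 within 1000 bp overlapped by 250 bp or less.

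The 5 pairs under 100 bp apart were not all of one kind. The closest pair of the list lay on 3L with 38 bp between its start sites (chr3L:21195983-21196020, dm3), and its first introns were both long, at 4644 bp on the minus side and 2354 bp on the plus side. A second 3L pair 62 bp apart (chr3L:21209940-21210001) lay within 20 kb of it and had first introns of 65 bp on the minus and 414 bp on the plus side. Another 3L pair was 42 bp apart (chr3L:5804032-5804073), with 2301 bp on the minus and 65 bp on the plus side. The closest pair on 2L was 54 bp apart (chr2L:8382808-8382861) and had minimal first introns on both sides, 65 bp on the minus and 64 bp on the plus strand. The closest on 3R was 74 bp apart (chr3R:120544-120617), with 385 bp on the minus and 175 bp on the plus side. On X the closest pair measured 131 bp (chrX:920737-920867). The 62 and 42 bp pairs on 3L were singled out after their values were seen, the others by a rule of 1 closest pair per arm. Each interval given is the stretch that both 5 kb regions share.

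**Figure D2:**
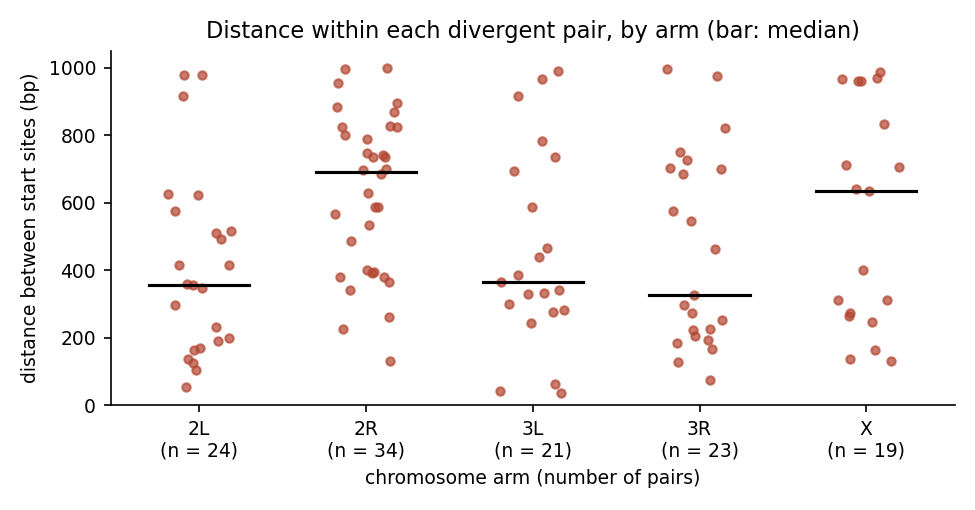
Distance between the start sites in bp (y axis) for each of the 121 pairs (points) on 5 chromosome arms (x axis), with the median of each arm as a black bar. Medians were 357 bp on 2L, 692 bp on 2R, 366 bp on 3L, 327 bp on 3R and 634 bp on X, and the points of all 5 arms overlap.

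Members lay on all 5 large arms. They numbered 40 of 813 regions on 2L (4.92%), 63 of 852 on 2R (7.39%), 39 of 877 on 3L (4.45%), 44 of 998 on 3R (4.41%) and 35 of 669 on X (5.23%). The arm with the highest share was 2R, with a 95% Wilson interval of 5.82 to 9.35%. This interval overlapped those of 2L (3.63 to 6.63%), X (3.79 to 7.19%), 3L (3.27 to 6.02%) and 3R (3.30 to 5.87%), the last only narrowly. Of all members, 28.5% were on 2R, where 20.0% of the regions with a known strand lay. The 3R arm, which carries the FRT82B site and on which clones of both groups were homozygous, held 19.9% of the members and 23.4% of the regions. Chromosome 4 had 0 members among 35 regions, which allows a share of up to 8.57% when 3 counts are taken as the limit and up to 9.89% by the 95% Wilson interval. Distances also varied by arm, as the plot by arm shows, with medians from 327 bp on 3R to 692 bp on 2R. The X median of 634 bp was 313 bp without the 4 pairs of a single locus. Differences between arms were not tested.

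The first introns of members were short. Their median was 109 bp (95% binomial interval 78 to 190 bp, 247 distinct introns), against 479 bp (431 to 535 bp, 4503 introns) at the other start sites with a known strand. Quartiles were 62 and 762 bp in members and 70 and 2341 bp at the other start sites. Introns of 100 bp or less, close to the smallest size that fly introns commonly have, made up 48.6% of the member introns (120 of 247, 95% Wilson interval 42.4 to 54.8%) and 32.1% at the other start sites (30.7 to 33.5%). At the long end, introns of 1000 to 9999 bp made up 17.4% in members and 30.4% at the other start sites, and introns of 10 kb or more made up 2.43% in members (6 introns) and 7.99% at the other start sites. The class of 101 to 999 bp had close shares, 31.6% in members and 29.5% at the other start sites. No test was made, since introns of one gene and of one pair are not independent and the strand of every region was read from its intron.

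The shorter median held on each of the 5 arms. On 2L it was 82 bp in members and 494 bp at the other start sites. On 2R it was 139 bp in members and 482 bp at the other start sites, and on 3L 73 bp in members and 434 bp at the other start sites. On 3R it was 110.5 bp in members and 402.5 bp at the other start sites, and on X 272 bp in members and 578 bp at the other start sites. Members on X had the longest median of the 5 arms, from 44 introns. Both sides of the pairs were short, with medians of 121 bp for minus members (95% binomial interval 68 to 385 bp) and 104 bp for plus members (75 to 175 bp). First exons, measured from the start site to the first intron, had a median of 195 bp in members (163 to 218 bp) and 228.5 bp at the other start sites (222 to 238 bp).

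**Figure D3:**
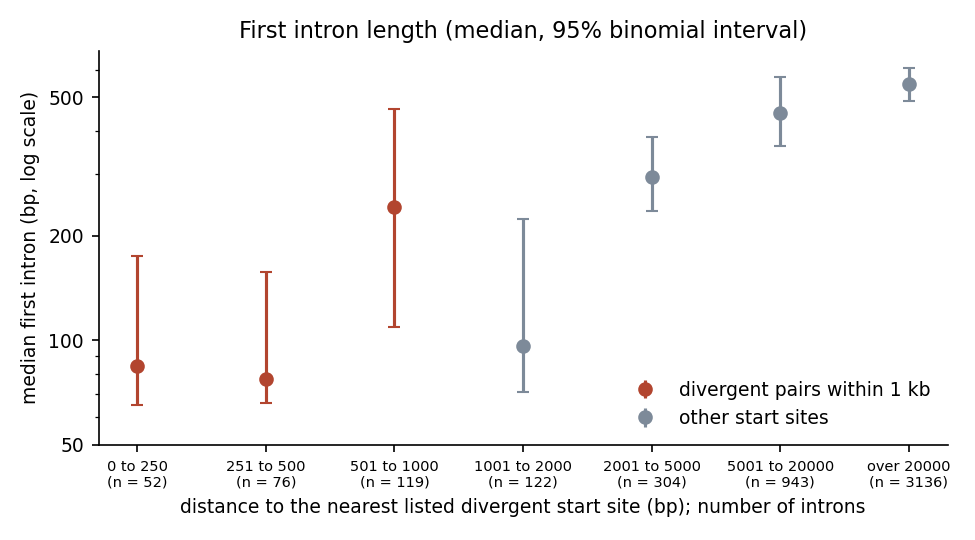
Median first intron length in bp on a log axis (y axis) with its 95% binomial interval, by distance to the nearest listed divergent start site in bp (x axis, n introns), red for divergent pairs within 1 kb and gray for other start sites. The median was 84.5 bp in the closest class and 547 bp where no listed divergent start site lay within 20 kb.

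Intron length was then set against the distance to the nearest listed divergent start site, over all 4262 regions. Medians were 84.5 bp at 0 to 250 bp, 77.5 bp at 251 to 500 bp and 242 bp at 501 to 1000 bp, the 3 classes that hold the members. Beyond them the median was 96 bp at 1001 to 2000 bp, 295.5 bp at 2001 to 5000 bp, 451 bp at 5001 to 20000 bp and 547 bp beyond that. The interval of the 501 to 1000 bp class, 109 to 463 bp, overlapped that of the 1001 to 2000 bp class, 71 to 223 bp, so their order is not settled. Short first introns extended to start sites 1001 to 2000 bp apart, where 51.6% of the introns were 100 bp or less.

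Genes near a divergent neighbor that was not regulated count among the other start sites here. The annotation of a later build (BDGP6.54, Ensembl release 115) was therefore used for the same lengths and distances over all genes, without comparing positions between builds. Of 16917 annotated start sites of protein-coding transcripts with a first intron, 4860 (28.7%) had a divergent annotated start site within 1000 bp. Their first introns had a median of 113 bp, against 351 bp at the remaining annotated start sites, and 47.7% of them were 100 bp or less, against 34.8% at the remaining ones. In the list, the medians were 109 bp for members and 479 bp for the other start sites. Short first introns thus accompanied divergent start sites in the annotation as a whole as well as in the list. The median distance was 467 bp in the listed pairs and 360 bp in the 2983 annotated pairs, which lies below the interval of 379 to 588 bp of the listed ones. That interval counts every pair of a crowded locus. Over the mutual pairs the median was 452.5 bp (342 to 588 bp). With 1 pair per combination of linked groups it was 487 bp (359 to 588 bp). Both of these intervals contain 360 bp, but the annotated median counts every pair and was not computed over such units. Whether listed pairs lie farther apart than annotated ones is therefore not settled. The ratio of divergent to overlapping pairs was 11 in the list. In the annotation it was 16.5 for protein-coding transcripts with a first intron, which lies inside the interval of the listed ratio, 5.99 to 20.2. Over all protein-coding transcripts it was 17.5, also inside, and over all annotated transcripts it was 5.13, below that interval. Both of these sets include transcripts without a first intron, which could not enter the listed pairs. The set of all annotated transcripts also holds transcripts that are not protein-coding, and whether the lists hold such transcripts is not known. The 5.19% of listed regions that were members cannot be read against 28.7% directly, since a listed pair needs both of its genes to have been regulated and the annotations differ.

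First introns were then compared within pairs. For each of the 102 mutual pairs, the longest first intron of either start site was taken. Both introns were 100 bp or less in 35 pairs, exactly 1 was in 38 pairs, and neither was in 29 pairs. The 108 introns of 100 bp or less had a median of 62 bp. Both introns reached 1000 bp in 8 pairs, 1 of them did in 25, and neither did in 69. The longer intron of a pair was a median of 2.24 times the shorter one, and in 24 of the 102 pairs at least 10 times. The shorter introns had a median of 63 bp and the longer ones of 394 bp, which differ in part because each pair was sorted by length. The minus side held the longer intron in 59 pairs and the plus side in 42, with 1 tie. Over the 102 pairs the minus and plus introns were weakly related (Spearman's rho 0.22, Pearson's r of log10 lengths 0.24), which is given as a description because the 2 sides of a pair share a locus and its local gene density. The distance between start sites and the longer intron had a rho of 0.18 and an r of 0.17 with log10 length.

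**Figure D4:**
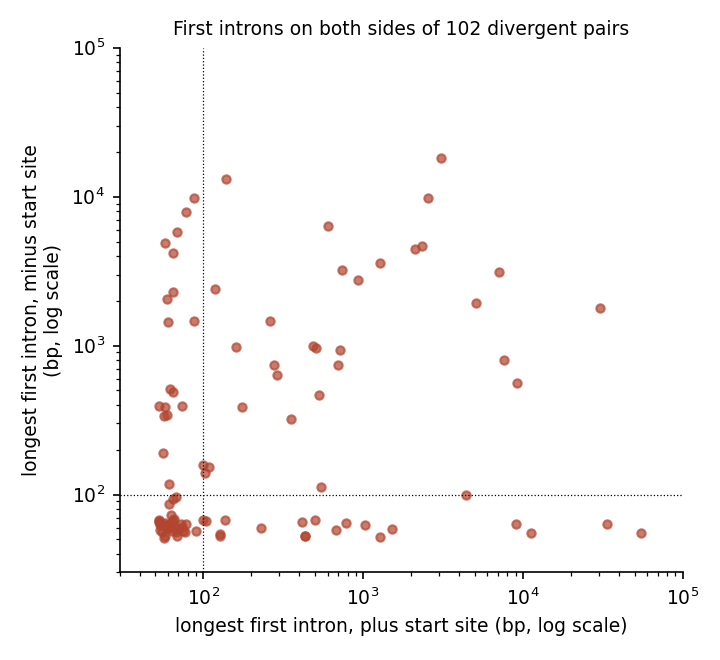
Longest first intron of the minus start site (y axis) against that of the plus start site (x axis) for 102 mutual pairs (points), both in bp on log axes, with dotted lines at 100 bp. The cluster at the lower left holds the 35 pairs with 100 bp or less on both sides, and 6 pairs have an intron of 10 kb or more on one side.

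A long first intron was found in 6 of the mutual pairs, with at least 10 kb on one side, and 3 of these were on 2R. The longest was on 2L, where a plus transcript with a first intron of 54867 bp started 511 bp from a minus transcript whose first intron was 55 bp (chr2L:13835057-13835567). On 3L, a plus transcript with 33412 bp started 332 bp from a minus transcript with 63 bp (chr3L:21027304-21027635). On 3R the minus side had 18108 bp and the plus side 3091 bp, 686 bp apart (chr3R:1606799-1607484). This 3R locus was also rich in transcripts, with 6 listed on the minus and 4 on the plus start site, and 6 was the highest number on any member region. The longest on X was the pair already named as the closest of that arm, with 9805 bp on the minus and 88 bp on the plus side, 131 bp apart. In the 2L, 3L and X pairs the long intron faced an intron of under 100 bp across the shared stretch, whereas in the 3R pair both were over 1 kb.

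Most members carried a single listed transcript. The 221 regions held 311 transcript rows, and 52 regions (23.5%) had 2 or more transcripts, against 25.3% of the other regions with a known strand. In 59 mutual pairs both start sites had 1 transcript, in 36 pairs one of them had several, and in 7 pairs both had. A further listed start site on the same strand within 1000 bp was found for 38 members (17.2%, 95% Wilson interval 12.8 to 22.7%) and for 993 of the 4041 other regions (24.6%, 23.3 to 25.9%). The locus with the most start sites lay on X. There, 4 minus start sites within 29 bp of each other, with 6 transcripts in all on their regions, faced 1 plus start site with 5 transcripts. Its 4 pairs measured 959 to 988 bp, and the shared stretch of the closest was chrX:16589207-16590165. The first introns there were of middle length, up to 746 bp on the minus and 279 bp on the plus side. Pairs of this locus take 4 of the 19 places on X, and its distances lie near the limit, so the X median of 634 bp leans on it and was 313 bp over the 15 pairs without it.

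For the scan for binding motifs, the geometry of the pairs decides which gene a motif is assigned to. The stretch between the start sites is shared by both 5 kb regions of a pair in full. Beyond it, each region continues past the start site of the partner and into the partner's own transcript. Over the 204 regions of the 102 mutual pairs, 9.87% of the summed 5 kb lay between the start sites, 5.77% in the first exon of the partner and 15.4% in its first intron. The remaining 69.0% lay beyond the partner's first intron. A region listed as upstream of a paired start site thus lay to 90.1% past the start of another listed transcript. The limit of 1000 bp against regions of 5000 bp fixes most of this share, so it is no finding about the pairs.

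**Figure D5:**
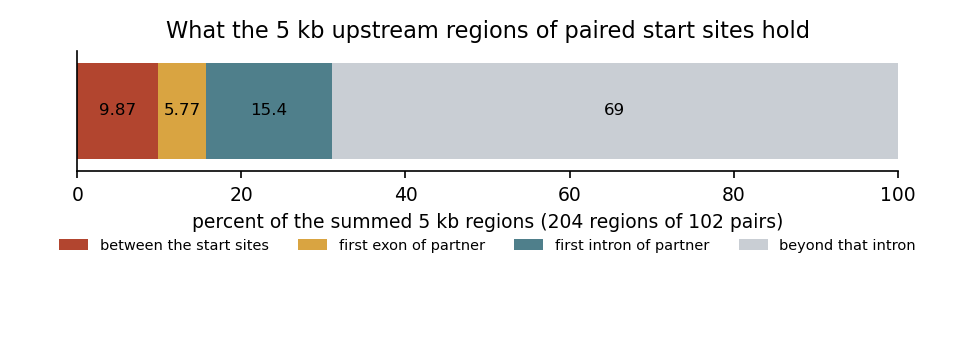
Makeup of the summed 5 kb upstream regions of 102 mutual pairs (204 regions) in percent (x axis), divided into the stretch between the start sites, the first exon and first intron of the partner, and the part beyond. The stretch between the start sites made up 9.87%, which the limit of 1000 bp keeps small, and the part beyond the first intron 69.0%.

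In all 121 pairs, or 242 of 242 directions, the 5 kb region of each start site reached into a first intron of its partner. The limit of 1000 bp and the first exons of members, at most 1946 bp long, fix this, so it is no finding about the pairs. At least 1 whole first intron of the partner lay inside the region in 225 of the 242 directions (93.0%), and in both directions in 104 pairs (86.0%). Since first introns were themselves listed for the scan, these introns were listed as intron of one gene and again as upstream sequence of its neighbor. By length the repetition was smaller, because the few long introns extend past 5 kb. Of the 334895 bp of longest partner introns, 157011 bp (46.9%) lay inside the region of the neighbor. In the pair with the longest intron, on 2L, the neighbor's region covered 3624 bp of the 54867 bp, or 6.61%. It covered 3902 bp (11.7%) in the 3L pair with 33412 bp and 4679 bp (47.7%) in the X pair with 9805 bp.

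The space left between the first introns of a pair was also measured. The limit of 1000 bp bounds part of it, and no other start sites were measured for comparison. From the first intron of the minus transcript to that of the plus transcript, with both first exons and the stretch between the start sites, the median was 981.5 bp (quartiles 683 and 1262.25 bp), and it ranged from 308 to 3083 bp. In 54 of the 102 mutual pairs (52.9%) it was 1000 bp or less. Where a region had several transcripts, the one with the shortest first exon was taken.

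Start sites without a listed first intron have no known strand and could not be members. For 67 further combinations, 1 side had a known strand and the other was such a region whose position would make a divergent pair within 1000 bp if it ran the right way. They involved 57 regions without a strand and 67 regions with one, of which 61 were not members. The 221 members are therefore a lower number than a list with strands could give, and how many of these combinations are true pairs was not tested.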

How the data were processed

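The series holds RNA-seq libraries of 20 samples of EAD from 6 genotypes. The authors mapped reads to BDGP R5/dm3 with Tophat and quantified genes with Cufflinks and DESeq2 on Ensembl annotation. They deposited 2 lists of positions, of 5 kb upstream regions and of first introns, for the comparison of rasV12scrib1 (4 samples) with control (4 samples). No count or expression value was used, so depth per sample was not analysed here. The paper names more than 1 set of cut-offs for differential expression. By its account the motif scan covered all genes that passed the looser fold-change cut-off in rasV12scrib1, and the scanned regions are those deposited. The lists themselves carry no cut-off, so this was not checked from them.

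Each of the 6232 introns took the next upstream row within 20 kb and 60 rows, which gave the strand. The rows are in mixed genomic order, at most 3 upstream rows were passed over, and no region received both strands. Pairing and the search for pairs were tested on simulated data. Positions were converted to counting from 1. The distance of a pair is the number of bases shared by its 2 regions. Introns and exons were counted once per position. Shares carry 95% Wilson intervals and medians 95% binomial intervals.

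The members and the pairs to be named were chosen with earlier results of these lists known. Named pairs were the closest and the longest-intron pair of each arm but 2R, where no position is given, those nearest the limit and the largest locus. Regions are not replicates, and no test was run. Alternatives covered pairing, the limit, the unit counted and the annotation. Calculations were done in Python 3.11.15 with scipy 1.17.1 and numpy 2.4.6, and plots with matplotlib 3.10.9.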

Additional observations from a re-analysis of the deposited data

How the results depend on the processing

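Pairing with a reach of 10 or 50 kb, a window of 20 or 200 rows, introns at most 2 kb from their start site, or without regions of both strands left the 221 member regions unchanged in number. A limit of 500 bp gave 116 regions and 63 pairs, and one of 2000 bp gave 334 regions and 189 pairs, as the construction requires. Taking regions without an intron with either strand gave 383 regions. The share of members, 5.19%, was 4.99% over upstream rows and 5.95% over linked groups, the last just above its interval of 4.56 to 5.89%. The median first intron of the other start sites, 479 bp, was 656 bp over every intron row, 421 bp with the longest intron of each region and 328.5 bp with the longest of each linked group, the last chosen after seeing the data. Under the same settings the median of members was 136, 90 and 91.5 bp, each below that of the other start sites. The annotated share of 28.7% was 31.3% over all protein-coding and 32.6% over all annotated transcripts, and the annotated ratio of divergent to overlapping pairs, 16.5, was 17.5 and 5.13 over the same sets, which were chosen for it after seeing the data. Medians of distance, first exons and the listed ratio of divergent to overlapping pairs stayed within their intervals under the alternatives run. No interval was made for the share of all members that lay on each arm. This share moved most on 3R, from 19.9% to 20.5% over linked groups and 20.6% over mutual pairs. No paired analysis was possible because the lists hold no values per sample, and leaving out each replicate could not be done for the same reason.

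The lists do not name genes, and so 1 gene can enter as several start sites. Wrong strands would make false pairs, and their number in these lists is not known.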

Other observations

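The 102 loci with divergent pairs were spread along the arms. The median distance between neighboring loci on an arm was 631 kb over 97 distances, and 4 of these distances were 20 kb or less, the smallest 2318 bp. The summed 5 kb regions of the members came to 1.105 Mb and covered 0.956 Mb, so that 13.5% was repeated, against 24.5% of the 20.205 Mb of the other regions with a known strand. With first introns added, 22.8% of the members' length was repeated, against 30.9% for the other regions. Repetition among the other regions includes start sites of one gene that lie close together on one strand. Each set was measured by itself, so overlap of member regions with other regions was not counted. The sets also differ in size, 221 and 4041 regions, so these shares do not show that members are less repeated within the whole list.

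By distance, both first introns were 100 bp or less in 10 of 24 mutual pairs at 0 to 250 bp, in 12 of 30 at 251 to 500 bp, in 9 of 29 at 501 to 750 bp and in 4 of 19 at 751 to 1000 bp. The median of the longer intron was 390, 246, 436 and 778 bp in these classes in the same order. These classes were set after the lists were seen, and no trend was tested.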
